A study of Mus musculus with 6 samples.

Results

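The genes examined here encode the machinery that writes, reads and removes histone H3 lysine 9 methylation and builds heterochromatin. They were 34 genes, and every peak of accessible DNA that the authors had named for exactly one of them was taken. This gave 105 of the 123510 peaks of the series, at 31 of the 34 genes. No peak carried the name Cbx3, Morc2a or Fam208a. A peak here is a stretch of DNA with enriched ATAC-seq reads, an assay that uses a transposase to tag DNA where chromatin is open.

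Accessibility was measured in nuclei of whole small intestinal crypts from male C57BL/6 mice, with 3 wild type (WT) libraries and 3 libraries from mice with a Vil-Cre mediated KO of Smarcad1 (KO). SMARCAD1 is a chromatin remodeler of the SNF2 family that helps to keep heterochromatin in place. In the KO, Cre driven by the Villin promoter removes floxed Smarcad1 exons in the intestinal epithelium only, and other cells of a crypt preparation keep them. The KO allele descends from 1 targeted embryonic stem cell clone. The ages of the mice, and whether the WT animals carried the floxed allele or Cre, are not given in the sources used here. The titles number the libraries WT1 to WT3 and KO1 to KO3, with 50000 cells in each. Nothing in the labels says that these are separate animals, and p-values measure only the spread between the libraries.

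Reads in peaks ranged from 4339306 in KO3 to 16301164 in WT3. The libraries did not stand apart by genotype. WT2 and KO2 lay together on the first principal component of all peaks, which held 49.4% of the variance, with scores of 116 and 117. KO3 and WT3 lay at the other end, with -139 and -77.6. No peak (0 of 123510) overlapped the deleted Smarcad1 exons, and at the start of Smarcad1, outside the deletion, the log2 values were 8.44, 7.32 and 8.70 in WT and 8.36, 7.34 and 8.61 in KO, so these peaks do not check the genotype. Of 13 epithelial marker genes, 10 had a peak and their strongest peaks had a median WT log2 value of 8.60. For 9 immune markers the numbers were 5 and 5.59, and for 8 stromal and vessel markers 8 and 6.46.

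Heterochromatin is marked by methylation of lysine 9 on histone H3, which HP1 proteins bind and which keeps repeats and silent genes compact. KRAB zinc finger proteins bring the corepressor KAP1 (Trim28) and the methyltransferase SETDB1 to DNA. DNA methylation and histone deacetylation act on many of the same sites, and demethylases and TET enzymes work in the opposite direction. The comparison of KO with WT asks whether the genes of this machinery were more or less accessible where SMARCAD1 was missing.

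The promoters below show what sequence lies under these peaks. They come from RefSeq on GRCm38.p6 and run from 250 bases before to 50 bases after a start, 5′ to 3′ on the strand of the gene, with each CpG in capitals. Sin3a at chr9:57076126-57076425 (plus strand), Mbd3 at chr10:80399482-80399781 (minus strand) and Cbx5 at chr15:103239803-103240102 (minus strand) lie under some of the strongest peaks. Dnmt1 at chr9:20952574-20952873 (minus strand) and Setdb1 at chr3:95357153-95357452 (minus strand) lie under peaks weaker per kb than most at gene starts, though not weak among all peaks. Tet1 at chr10:62887275-62887574 (minus strand) is shown because this start is in RefSeq and under a peak, yet more than 1 kb from any basic transcript start in GENCODE vM21.
Sin3a: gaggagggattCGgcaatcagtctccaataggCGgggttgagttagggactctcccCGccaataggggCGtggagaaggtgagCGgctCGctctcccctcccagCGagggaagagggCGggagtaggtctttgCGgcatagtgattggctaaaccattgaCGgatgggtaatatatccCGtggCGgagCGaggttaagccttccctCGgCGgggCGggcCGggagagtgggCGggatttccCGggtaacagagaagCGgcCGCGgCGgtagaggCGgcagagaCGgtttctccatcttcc
Mbd3: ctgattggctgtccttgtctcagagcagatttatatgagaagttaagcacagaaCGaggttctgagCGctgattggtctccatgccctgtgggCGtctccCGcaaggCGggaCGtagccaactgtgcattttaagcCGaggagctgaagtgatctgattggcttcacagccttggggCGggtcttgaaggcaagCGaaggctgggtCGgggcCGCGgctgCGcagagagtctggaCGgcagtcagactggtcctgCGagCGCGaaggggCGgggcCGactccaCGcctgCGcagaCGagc
Cbx5: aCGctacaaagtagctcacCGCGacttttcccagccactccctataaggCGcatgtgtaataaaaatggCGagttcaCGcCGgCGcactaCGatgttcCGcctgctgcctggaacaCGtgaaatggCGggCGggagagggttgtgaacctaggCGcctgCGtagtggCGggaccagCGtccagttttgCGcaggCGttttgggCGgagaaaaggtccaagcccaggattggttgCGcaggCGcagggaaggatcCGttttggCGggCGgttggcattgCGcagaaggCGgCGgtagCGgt
Dnmt1: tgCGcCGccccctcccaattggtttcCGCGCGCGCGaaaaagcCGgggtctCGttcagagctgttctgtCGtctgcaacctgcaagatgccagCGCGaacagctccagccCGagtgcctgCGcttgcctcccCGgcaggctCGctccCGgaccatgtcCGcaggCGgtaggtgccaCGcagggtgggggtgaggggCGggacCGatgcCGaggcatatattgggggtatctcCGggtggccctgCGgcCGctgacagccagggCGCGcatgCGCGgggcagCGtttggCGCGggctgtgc
Setdb1: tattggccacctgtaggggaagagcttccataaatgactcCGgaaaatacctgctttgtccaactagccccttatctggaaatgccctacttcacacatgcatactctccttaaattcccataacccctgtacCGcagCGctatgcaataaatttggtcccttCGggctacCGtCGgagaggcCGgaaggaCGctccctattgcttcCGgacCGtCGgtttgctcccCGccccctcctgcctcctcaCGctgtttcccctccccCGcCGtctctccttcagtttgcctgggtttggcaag
Tet1: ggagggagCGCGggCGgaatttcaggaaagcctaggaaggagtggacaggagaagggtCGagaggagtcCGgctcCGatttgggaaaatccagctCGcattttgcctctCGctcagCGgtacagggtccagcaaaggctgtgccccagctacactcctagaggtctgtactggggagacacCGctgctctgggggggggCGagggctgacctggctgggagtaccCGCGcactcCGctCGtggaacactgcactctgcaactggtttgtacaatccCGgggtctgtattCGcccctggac

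The set of RefSeq promoters used here held 42 starts for 29 of the 34 genes. Lmnb1, Mbd2, Hdac1, Hdac3 and Kdm4b have no entry in this set. Of the 42 starts, 35 lay inside a peak and 7 did not, and each of the 29 genes had at least 1 start inside a peak. The promoter windows of the 35 starts in peaks held a median of 29 CpGs (range 8 to 57), against 7 in all 32851 RefSeq promoters of the same length. Those 32851 promoters were not limited to starts inside a peak, so like is not set against like. The 7 starts outside peaks held a median of 2. Of these, 4 held at most 2 CpGs: the upstream starts of Dnmt1 (20959888 on chromosome 9) and Kdm4c (74242497 on chromosome 4) and the downstream starts of Kdm3a (71609139 on chromosome 6) and Morc2a (3658672 on chromosome 11). The other 3 held 14 at Sin3a (57072040 on chromosome 9), 18 at the start of the short Dnmt3a isoform (3891744 on chromosome 12) and 40 at the second start of Ehmt2 (34898970 on chromosome 17). The last 2 lay just beside a peak.

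**Figure D1:**
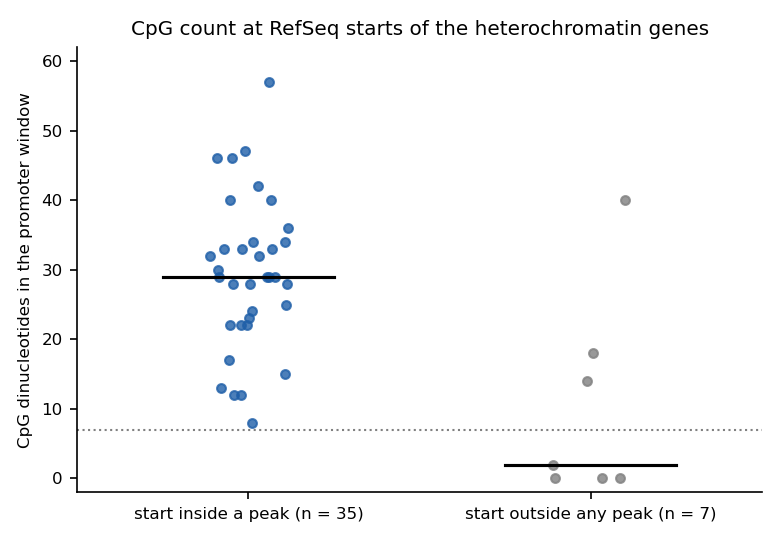
Number of CpG dinucleotides (vertical axis) in the promoter windows of the 42 RefSeq starts, split by whether the start lay inside a peak (horizontal axis). Each point is a start, the bars are medians (29 and 2) and the dotted line is the median of all RefSeq promoters (7). Of the starts outside peaks, 4 sit at 2 or below, and the highest is the Ehmt2 start with 40.

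Short motifs were searched on both strands of the same windows. The CCAAT box (letters CCAAT) stood in 17 of the 35 windows in peaks, or 48.6%, and in 37.4% of all promoters. A GC box (letters GGGCGGGG) stood in 15 of them, or 42.9%, against 17.6% of all promoters. Of the promoters printed above, those of Setdb1 and Mbd3 carried it. The E2F letters TTTGGCGC stood in the windows of Cbx3 and Dnmt1, 2 of the 35 or 5.71%, against 0.514%. Of the other motifs searched, the ETS letters CCGGAAG were rarer than in all promoters, at 5.71% against 8.86%. The YY1 letters AAGATGGC stood in 2.86% against 2.75%, and the CRE letters TGACGTCA in 2.86% against 1.79%. The NRF1 letters GCGCATGCG stood in 2 of the 35 or 5.71%, both of them windows of Dnmt1, against 1.75%. The members' windows were limited to starts in peaks, while all promoters were not. They also have more CpGs than most promoters and several belong to the same gene, so these shares are descriptions.

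Of the 105 peaks, 30 lay within 1 kb of an annotated start of their own gene, 52 in introns, 14 on coding exons, 7 on other exons and 2 in flanks. The strongest of these start peaks was used for each gene, which gave 28 gene-start peaks and left 77 other peaks. Levels between genes are compared as the linear normalized value per kb of peak. On that scale the WT median of the 28 gene-start peaks was 269 (226 to 327 when 1 WT library was left out), against 166 for the gene-start peaks of 11134 genes. Above the median of all these genes stood 23 of the 28. Genes whose start lay under a peak of another name are not among the 28. Of these, Ehmt2 (143) and Dnmt3b (105) lay below that median in WT, and Cbx3 (240), Morc2a (261) and Fam208a (226) above it. The order of the 28 ran from Kdm4b at 827 ± 183 (SD, n = 3 WT libraries) to Hdac3 at 129 ± 14.2. The WT ranges of every pair of neighbours in it overlapped. Within each WT library Kdm4b still lay above its neighbour Sin3a, at 853, 633 and 995 per kb against 615, 501 and 714.

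By role, the 5 demethylase genes had the highest median per kb in each of the 6 libraries and the 3 DNA methylation genes with a gene-start peak had the lowest. The mean of the 3 WT medians was 526 ± 147 for the demethylases, 395 ± 83.1 for the MBD genes and 317 ± 89.0 for the deacetylase genes. It was 224 ± 33.1 for the H3K9 methyltransferases and 141 ± 32.9 for the DNA methylation genes. Both places depended on the division by width. Per peak and not per kb, the demethylase genes were highest in WT1, WT2 and KO2 and the nuclear periphery genes in WT3, KO1 and KO3, and the DNA methylation genes were lowest in KO3 only.

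**Figure D2:**
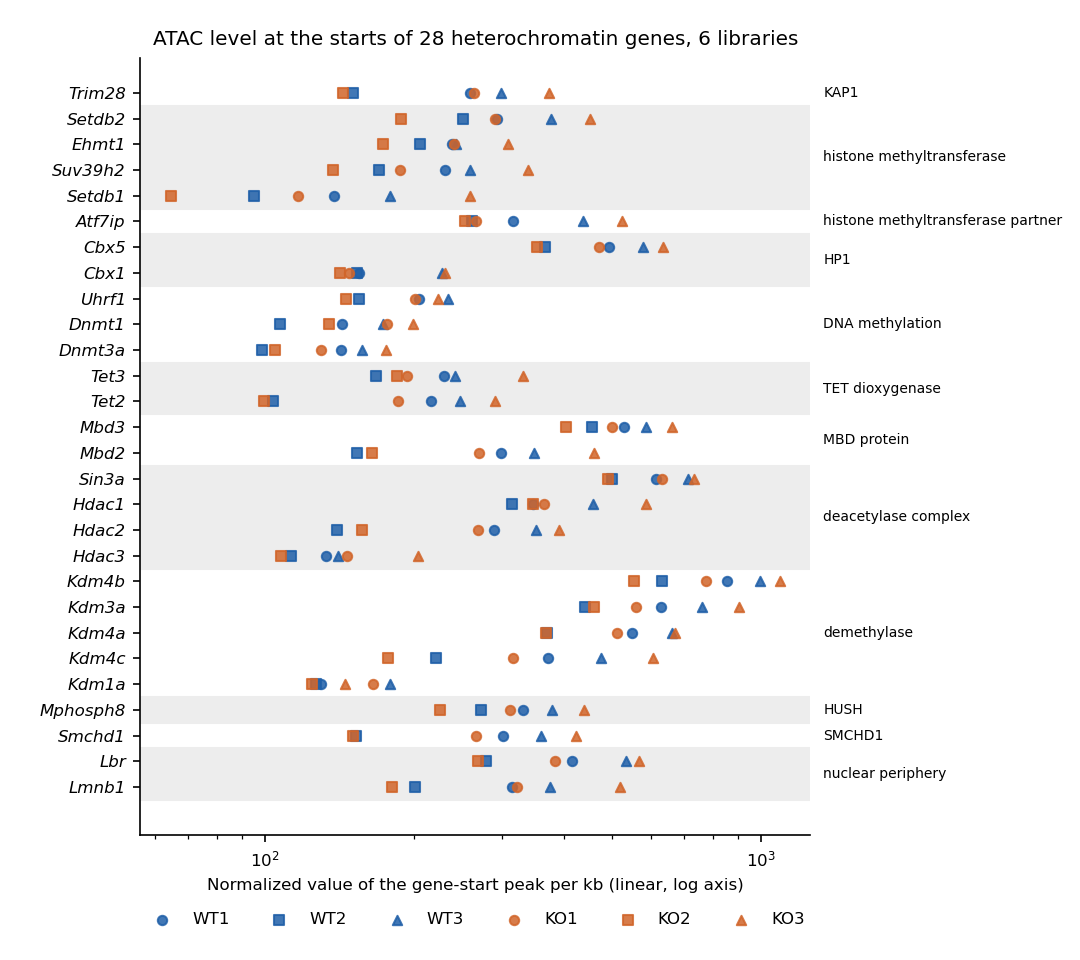
Linear normalized value per kb of peak (horizontal log axis) at the gene-start peak of 28 genes, grouped by role and ordered by WT mean within a role. Blue points are the WT libraries and orange points the KO libraries, with circles, squares and triangles for numbers 1, 2 and 3. Squares (WT2 and KO2) lie lowest and KO3 lies highest in nearly every row, and Kdm4b, Sin3a and Kdm3a lie furthest right.

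No peak of these genes passed the test of KO against WT. At an adjusted p-value below 0.05 (limma, Benjamini-Hochberg over all peaks) 0 of the 105 peaks were called, and 0 of all 123510 peaks (0% called). The authors' own test on read counts did report sites of changed accessibility, so the 0 over all peaks holds for this limma test. limma voom on whole reads also called 0 of the 105, but its count over all peaks was not taken. With no adjustment, 0 of the 105 peaks had a p-value below 0.05, against 0.909% of all peaks higher in KO and 1.37% lower. All 3 KO libraries lay above all 3 WT libraries in 4 of the 105 peaks (2.70% of all peaks), and below them in 1 (4.10% of all peaks). The median KO minus WT was 0.02 on the log2 scale over the 105 peaks, with 60 higher and 45 lower and a range from -0.59 to 0.71, beside a median of -0.02 over all peaks.

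At the 28 gene-start peaks the median KO minus WT was 0.01, with 15 higher and 13 lower. Over the gene-start peaks of all 11134 genes it was also 0.01, with 5784 higher. The differences of the 28 ran from -0.09 at Setdb1 to 0.28 at Dnmt1, and their standard errors from 0.29 to 0.45. At 27 of the 28 the SD of the 3 WT libraries was larger than the difference. The 95% intervals reached from -1.04 at their lowest to 1.04 at their highest. Each included 0, and a true difference anywhere inside its interval remains compatible with these 6 libraries. Reads behind a library's value ran from 27 to 1927 at the gene-start peaks and from 3 over all 105 peaks. A median of this kind turned on single libraries. Without KO2 the gene-start median was 0.26 and without WT3 0.17, and without KO3 it was -0.24 and without WT2 -0.18. With both number 2 libraries left out it was 0.04, and with both number 3 libraries left out -0.06.

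**Figure D3:**
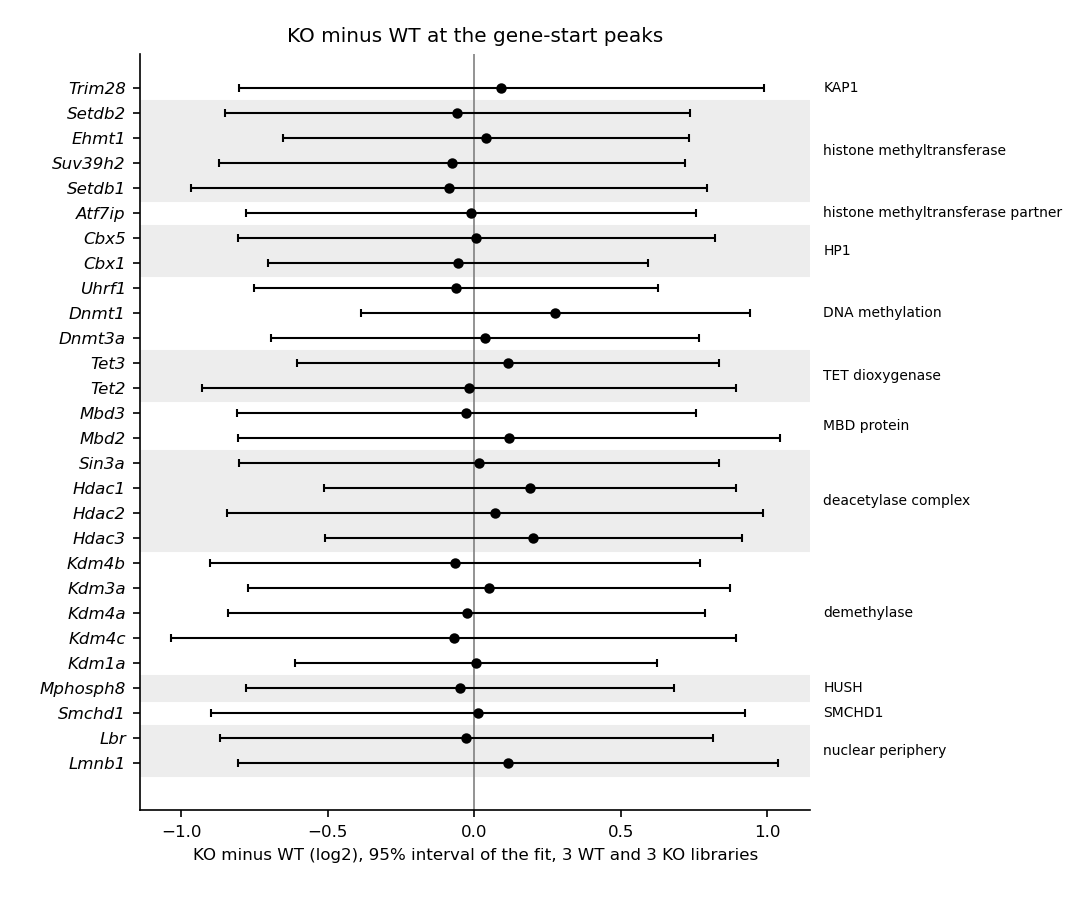
KO minus WT (horizontal axis, log2) at the gene-start peak of 28 genes, with 95% intervals from the limma fit over 3 WT and 3 KO libraries. All intervals include 0, and the points lie between -0.09 (Setdb1) and 0.28 (Dnmt1).

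Library differences that cut across genotype were larger. WT2 and KO2 both lay below the other 4 libraries at 26 of the 28 gene-start peaks, or 92.9%, against 66.8% of all gene-start peaks. Hdac1 and Cbx1 were the exceptions. The median of number 2 libraries minus the others was -0.61 at the 28 peaks and -0.52 at all gene-start peaks. KO3 was the highest library at 26 of the 28, and WT3 at the other 2. KO2 was the lowest at 21 and WT2 at 7. These gaps grew with the strength of a peak. In the 28 peaks of the set with a mean log2 value over 8, the median deviation from the peak mean was -0.33 in WT2 and -0.44 in KO2, and 0.30 in WT3 and 0.55 in KO3. In the 38 peaks under 6 it was -0.13 in WT2 and 0.21 in KO2, and 0.09 in both WT3 and KO3. In bulk nuclei, fewer cells with an open site and a less open site per cell cannot be told apart.

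**Figure D4:**
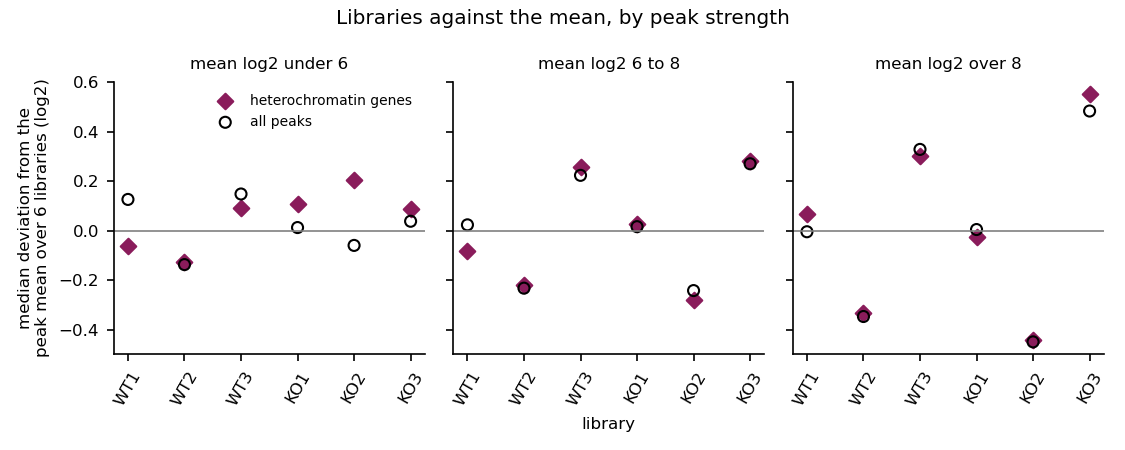
Median deviation of each library (horizontal axis) from the peak mean over 6 libraries (vertical axis, log2), for peaks of the heterochromatin genes (filled) and all peaks (open), in 3 classes of mean log2 value. In the class over 8, WT2 and KO2 lie at -0.33 and -0.44 and KO3 at 0.55 for the filled points, and the open points lie close to them.

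Trim28 encodes KAP1, the corepressor that KRAB zinc finger proteins bring to DNA. Its 1 peak, chr7:13022701-13026000, covered the start with log2 values of 9.74, 8.96 and 9.95 in WT and 9.77, 8.89 and 10.27 in KO. The groups overlapped, with KO minus WT at 0.09 (95% interval -0.80 to 0.99).

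Of the H3K9 methyltransferase genes, the gene-start peaks of 3 were lower in KO on average and 1 higher, none of them past the spread. Setdb1, the enzyme of H3K9 trimethylation that works with KAP1, had the weakest start peak of the 28 in total value (chr3:95356951-95357550), at 6.37, 5.83 and 6.74 in WT and 6.12, 5.27 and 7.28 in KO. KO2 was its lowest library and KO3 its highest, with a KO SD of 1.01 against 0.46 in WT and a KO minus WT of -0.09 (-0.97 to 0.79). Its promoter, printed above, had 15 CpGs and both a CCAAT box and a GC box. Setdb2, a relative of Setdb1, stood at 8.92, 8.69 and 9.28 in WT and 8.91, 8.27 and 9.54 in KO (chr14:59440051-59441700), in a peak that also covers the start of Cab39l. KO minus WT there was -0.06, and the reads of the 2 genes cannot be separated.

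Ehmt1 and Ehmt2 encode GLP and G9a, which form a dimer that places mono- and dimethylation. The start of Ehmt1 (chr2:24918601-24920250) had 8.62, 8.40 and 8.65 in WT and 8.63, 8.16 and 9.00 in KO, a difference of 0.04. Ehmt2 had 2 peaks of its name, both over coding exons, and the stronger one (chr17:34910251-34912800) was even across libraries at 8.33, 8.61 and 8.56 in WT and 8.34, 8.43 and 8.63 in KO. The first Ehmt2 start lay under a peak the authors named C2, at 7.65, 7.34 and 8.13 in WT and 7.55, 7.29 and 8.19 in KO. This peak is outside the naming rule and its KO minus WT was -0.03. Suv39h2, which trimethylates pericentromeric chromatin, had 8.81, 8.37 and 8.98 in WT and 8.51, 8.06 and 9.37 in KO (chr2:3474001-3475950), a difference of -0.08. An intronic Ehmt1 peak (chr2:24896551-24897150) was the 1 peak of the set with all KO libraries below all WT libraries, at 5.67, 5.58 and 5.95 in WT and 5.52, 5.27 and 5.32 in KO. It held 10 to 62 reads per library, and its KO minus WT of -0.37 had an unadjusted p of 0.17 in the limma fit, adjusted p = 1.

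Atf7ip keeps SETDB1 stable in the nucleus and had 6 peaks. Its start (chr6:136518451-136519500) read 8.37, 8.10 and 8.84 in WT and 8.12, 8.05 and 9.11 in KO, a difference of -0.01. Its intronic peak at chr6:136543051-136543650 was among the 5 with the smallest p-values on the lower side, at 5.22, 5.13 and 6.13 in WT and 4.93, 4.84 and 5.70 in KO. The groups overlapped there and KO minus WT was -0.34 (unadjusted p = 0.33, limma).

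The HP1 proteins bind methylated H3K9. Cbx5, which encodes HP1 alpha, had one of the strongest starts, 479 ± 107 per kb in WT against 179 ± 42.6 for Cbx1, which encodes HP1 beta. Its peak (chr15:103239001-103241400) covers the promoter printed above and also the start of the neighbour Hnrnpa1. Values were 10.21, 9.78 and 10.44 in WT and 10.15, 9.73 and 10.57 in KO, a difference of 0.01. A second Cbx5 start peak (chr15:103215151-103215600) was weak, with 5.37, 5.27 and 5.70 in WT and 5.29, 4.77 and 5.00 in KO. KO1 overlapped WT2, and the difference of -0.43 had an unadjusted p of 0.15 (limma). Cbx1 read 7.12, 7.11 and 7.68 in WT and 7.05, 7.00 and 7.70 in KO (chr11:96788851-96789750), with both number 3 libraries highest and KO minus WT at -0.05. The start of Cbx3, for HP1 gamma, lay under a peak named Hnrnpa2b1 (chr6:51468451-51471450), where KO minus WT was -0.00 (-0.72 to 0.72).

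In the DNA methylation group, Dnmt1 had the largest difference of all 28 gene starts. DNMT1 copies methylation to the new strand after replication. At its start (chr9:20952001-20953650) the values were 7.88, 7.46 and 8.15 in WT and 8.18, 7.80 and 8.35 in KO. The groups overlapped, since KO2 lay below WT1 and WT3, and the difference of 0.28 (-0.39 to 0.94) had an unadjusted p of 0.39 (limma), adjusted p = 1. It was the one gene-start difference that kept its sign in all the alternatives run, between 0.09 and 0.44 with each library left out. Unlike at the start, all 3 KO libraries lay above all WT libraries at the intronic Dnmt1 peak (chr9:20916151-20916600). Values there were 5.37, 4.97 and 5.39 in WT and 5.65, 5.61 and 5.80 in KO, a difference of 0.44 (unadjusted p = 0.10, limma) from 14 to 42 reads per library. Summed over both peaks, KO minus WT was 0.30 (-0.25 to 0.85).

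Uhrf1, which brings DNMT1 to hemimethylated DNA, read 8.64, 8.24 and 8.83 in WT and 8.61, 8.15 and 8.76 in KO (chr17:56302801-56304750), a difference of -0.06. Dnmt3a, a de novo methyltransferase, had 9 peaks, the most of any of the 34 genes, and its main start (chr12:3805501-3809100) read 9.00, 8.47 and 9.14 in WT and 8.87, 8.56 and 9.30 in KO. The peak next to the start of its short isoform (chr12:3891901-3892950) was weaker, at 7.04, 6.79 and 7.25 in WT and 7.10, 6.98 and 6.80 in KO. One intronic Dnmt3a peak (chr12:3859501-3860700) lay higher in all KO libraries, at 6.67, 6.63 and 6.91 in WT and 7.17, 6.95 and 7.17 in KO, with KO minus WT at 0.36 (unadjusted p = 0.19, limma). Dnmt3b, the other de novo enzyme, had 3 weak peaks in its body. That at chr2:153656701-153657300 had the largest drop of the set, -0.59, from 5.88, 5.40 and 5.67 in WT to 5.21, 5.65 and 4.32 in KO. KO3, with 5 reads there, set most of it, and without KO3 the difference was -0.22. The Dnmt3b start, under a peak named 7530422B04Rik, had KO minus WT at 0.15 (-0.48 to 0.77).

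The TET enzymes oxidise methylated cytosine. Tet2 read 8.72, 7.66 and 8.92 in WT and 8.50, 7.60 and 9.15 in KO at its start (chr3:133543501-133545450), with both number 2 libraries lowest. Among the peaks named Tet3, the strongest lay not at the start but in an intron (chr6:83421451-83423250), at 9.27, 8.97 and 9.59 in WT and 9.16, 8.94 and 9.76 in KO. The start peak of that name (chr6:83440651-83442300) read 8.57, 8.11 and 8.64 in WT and 8.31, 8.25 and 9.09 in KO, a difference of 0.11. A peak with no gene name (chr6:83455051-83458050) lay at another annotated Tet3 start, outside the naming rule. It was about as strong as the intronic peak, at 9.39, 8.88 and 9.60 in WT and 9.23, 8.85 and 9.87 in KO. KO minus WT there was 0.03. Tet1 had 5 peaks, and the strongest covered the RefSeq start printed above (chr10:62885851-62887650), at 7.16, 7.22 and 7.35 in WT and 7.29, 7.30 and 6.95 in KO. The widest rise of the set, 0.71, was in an intronic Tet1 peak (chr10:62833951-62834250) with 5 to 31 reads, where WT2 was low at 3.20 and the groups overlapped.

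MBD2 and MBD3 are subunits of the NuRD complex, which joins deacetylases to a remodeler. Mbd3, whose promoter with 22 CpGs is printed above, read 10.22, 10.00 and 10.37 in WT and 10.14, 9.83 and 10.54 in KO (chr10:80398501-80400750). Its WT SD of 0.18 was among the smallest of the strong starts, and KO minus WT was -0.03 (-0.81 to 0.76). Mbd2 read 9.48, 8.52 and 9.71 in WT and 9.34, 8.62 and 10.11 in KO (chr18:70567651-70570050), a difference of 0.12 within a spread of 0.63 (WT SD).

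All 4 deacetylase complex genes had a gene-start mean higher in KO, by 0.02 to 0.20, with overlapping groups and none past the test, where 5784 of 11134 genes were higher. Hdac1, a class I deacetylase, read 8.29, 8.15 and 8.69 in WT and 8.36, 8.29 and 9.04 in KO (chr4:129542401-129543300), a difference of 0.19 (-0.51 to 0.89). Hdac2, its paralog, read 9.44, 8.39 and 9.72 in WT and 9.33, 8.55 and 9.87 in KO (chr10:36973351-36975750), a difference of 0.07. Hdac3, the deacetylase of the NCoR and SMRT corepressors, read 8.64, 8.40 and 8.72 in WT and 8.78, 8.33 and 9.25 in KO (chr18:37952851-37955850), in a peak that also covers the start of Rell2. KO3 was the highest library at all these 3 starts.

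Sin3a, the scaffold of the SIN3 complex, had the second strongest start per kb and the highest total value of the 28, at 10.70, 10.40 and 10.91 in WT and 10.74, 10.37 and 10.95 in KO (chr9:57075001-57077700). KO minus WT was 0.02 (-0.80 to 0.83). Small intronic peaks of this group were among the smallest p-values of the set. The Sin3a peak at chr9:57082351-57082650 had the smallest, 0.089 (limma, adjusted p = 1), with 4.78, 4.58 and 4.00 in WT and 5.37, 5.10 and 4.80 in KO, a difference of 0.64 from 7 to 24 reads. The Hdac1 peak at chr4:129525751-129526350 read 5.37, 5.27 and 5.00 in WT and 5.65, 5.91 and 5.46 in KO, a difference of 0.46. Both had all KO above all WT libraries. The Sin3a peak at chr9:57103051-57103650 overlapped between groups, at 4.43, 6.09 and 5.49 in WT and 6.17, 6.13 and 5.58 in KO, and its difference of 0.62 rested on the low WT1.

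The demethylase genes had the highest median level per kb. Kdm4b, which acts on H3K9me3 and H3K36me3, was first at 827 per kb and read 10.32, 9.89 and 10.54 in WT and 10.18, 9.70 and 10.68 in KO (chr17:56325151-56326650). Kdm3a, for mono- and dimethylated H3K9, read 9.88, 9.37 and 10.15 in WT and 9.72, 9.43 and 10.41 in KO (chr6:71632351-71633850). Kdm4a read 9.95, 9.38 and 10.22 in WT and 9.85, 9.37 and 10.24 in KO (chr4:118179151-118180950). In these 3 the number 2 libraries were lowest and the differences were -0.07, 0.05 and -0.03. Kdm4c, another KDM4 enzyme, read 9.61, 8.86 and 9.96 in WT and 9.37, 8.54 and 10.31 in KO (chr4:74250901-74253000), with the widest interval of the 28 (-1.04 to 0.89). An intronic Kdm4c peak (chr4:74367451-74367750) read 4.78, 4.46 and 4.32 in WT and 5.37, 4.77 and 5.17 in KO, a difference of 0.58 from 9 to 20 reads (unadjusted p = 0.10, limma) with KO2 just under WT1. Kdm1a, which encodes the flavin-dependent LSD1, was weak for this group at 145 ± 29.2 per kb. It read 7.45, 7.42 and 7.91 in WT and 7.80, 7.39 and 7.61 in KO (chr4:136601851-136603200), a difference of 0.01 with the smallest standard error of the 28 (0.29).

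The HUSH complex silences retroelements through H3K9me3. Mphosph8, its reader subunit, read 8.81, 8.52 and 9.00 in WT and 8.72, 8.25 and 9.22 in KO (chr14:56667601-56668950), a difference of -0.05. The starts of Morc2a, an ATPase that works with HUSH, and of Fam208a, the scaffold TASOR, lay under peaks named Tug1 (chr11:3648151-3649950) and D14Abb1e (chr14:27428251-27429900), the second an older name of Fam208a. KO minus WT was -0.02 and 0.12 there, with overlapping groups.

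Smchd1, for a chromosome protein of the inactive X, read 9.09, 8.10 and 9.34 in WT and 8.91, 8.08 and 9.57 in KO at its start (chr17:71474401-71476200), where the number 2 libraries lay 1.14 below the mean of the others. Of its 6 intronic peaks, that at chr17:71443201-71443800 was among the lower 5, at 5.50, 5.13 and 6.13 in WT and 4.58, 5.10 and 5.90 in KO (difference -0.39, overlapping). At the nuclear periphery, Lmnb1 (lamin B1) read 9.96, 9.30 and 10.21 in WT and 9.99, 9.15 and 10.68 in KO (chr18:56707051-56710200), a difference of 0.12. Lbr, whose product ties heterochromatin to the lamina, read 9.77, 9.20 and 10.13 in WT and 9.66, 9.14 and 10.22 in KO (chr1:181841251-181843350), a difference of -0.03.

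**Figure D5:**
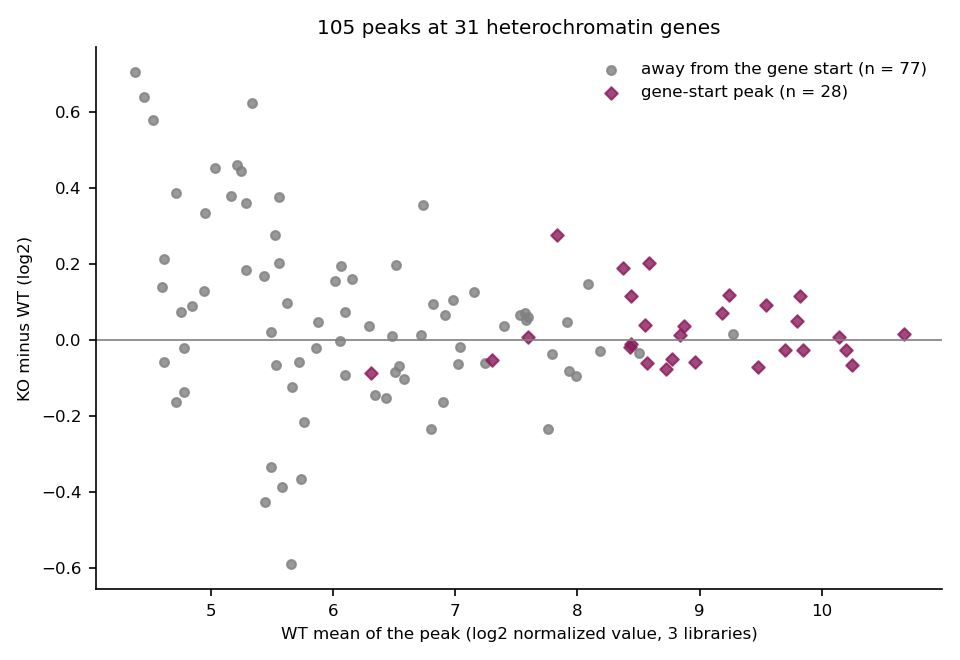
KO minus WT (vertical axis, log2) against the WT mean log2 value (horizontal axis) for all 105 peaks, with the 28 gene-start peaks as diamonds and the other 77 as grey circles. The diamonds lie close to 0, and the widest differences (-0.59 and 0.71) are in grey circles of low WT value.

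When all peaks of a name were summed to 1 value per gene, 0 of 31 genes were called by limma and 0 passed an unadjusted p of 0.05, where 0.761% of all 18004 names did. limma voom also called 0 of the 31, but its count over all names was not taken. The sums ranged from -0.26 for Dnmt3b to 0.30 for Dnmt1, with 17 higher and 14 lower, and the 95% intervals lay between -0.92 and 0.98. Of 51 other genes of the same complexes and reactions, 46 had a peak and 41 a gene-start peak. None of these 41 passed an unadjusted p of 0.05 in the limma fit, where 0.485% of all gene-start peaks did. Of the 41, 16 were higher and 25 lower in KO. The lowest were Chaf1a (-0.25), Kdm4d (-0.23) and Sin3b (-0.21), and the highest Uhrf2 (0.20), Morc3 (0.20) and Lmnb2 (0.18). Among all 230 peaks of these genes, 0 were called. An unadjusted p of 0.05 in the limma fit was passed by 5, or 2.17%, close to the 2.28% of all peaks. They were 1 of Ncor1 and 1 of Pphln1, lower in KO, and 1 of Wiz and 2 of Mta3, higher.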

How the data were processed

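The authors trimmed the ATAC-seq reads with Trim Galore (0.4.1), mapped them to GRCm38 with Bowtie2 (2.2.5) and called 1 set of MACS peaks in SeqMonk, after removing duplicates. Which libraries were pooled for calling is not given in the sources used here. The values the authors deposited are log2 read counts per peak and library, scaled to the largest library and not per length. A smaller deposited table holds 74 peaks that the authors listed as changed, with an edgeR adjusted p-value from their own KO against WT comparison. That column was not used, and none of the 74 peaks carries a name examined here. Every value column was mapped to a sample (0 were not).

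Linear values were whole multiples of the value of 1 read in each library (100% within 0.02 reads), which gave the reads in peaks. Counting error alone is covered by such reads, since no molecular identifiers were used. KO was compared with WT by limma (3.58.1, R 4.3.3; lmFit and eBayes with trend, two-sided) on the log2 values of all 123510 peaks and 6 libraries, with no covariate. The study used a count test. Here limma on the log2 values took its place, with voom on the recovered reads as an alternative. P-values were adjusted by Benjamini-Hochberg over all peaks, or over all 18004 names for sums. Intervals are 95% intervals of the fit. The fit was also run on simulated data, with noise drawn separately for each peak and library. That simulation lacked the library differences shared by many peaks that are seen here, so nothing is concluded from it. Gene starts came from the basic transcripts of GENCODE vM21, and promoters from RefSeq.

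The 34 genes and the 51 further genes were chosen with earlier results of these data known. All 34 are named, with values for the gene-start peak of the 28 genes that had one and the 5 peaks with the smallest p in each direction. Of the further genes, the 3 highest and 3 lowest gene starts and those passing the unadjusted threshold are named. Other peaks were named after their values were seen. Alternatives were other scalings, voom, a pseudocount of 5, a minimum mean of 20, a 2 kb window, the replicate number as a block, the strongest peak per name, and each library left out. Leaving out both libraries of a number was added after seeing the data.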

Additional observations from a re-analysis of the deposited data

How the results depend on the processing

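Among the 105 peaks and the 31 summed genes, no count of called peaks or names moved from 0 under any alternative run. The filter on a mean of at least 20 removed 0 peaks. At an unadjusted p below 0.05, the count among the 105 peaks went from 0 to 2 with quantile normalization, 2 with voom, 0 to 2 with 1 library left out (1 without WT2, 1 without KO2, 2 without KO3), 2 without both number 2 libraries and 1 without both number 3 libraries. Same-numbered WT and KO libraries deviated from their group means with correlations of 0.04, 0.42 and 0.41, which does not establish pairs. With the replicate number as a block the count was 3, and 6 (all higher in KO) with the block and quantile normalization. For summed genes it was 1 and 2 of 31, with 0 called in each. Shares over all peaks or names were not taken for any of these alternatives, so the counts cannot show an excess at these genes. Adjusted p-values of the 38 named peaks ran from 0.48 to 1 over the alternatives.

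The median KO minus WT of the 105 peaks ranged from -0.13 without KO3 to 0.19 without KO2, and was 0.16 without WT3. The median over all peaks itself moved to -0.14 without WT2 and -0.11 without KO3. As a total per peak, the WT median of gene starts was 483, in another unit than the value per kb. With 1 library left out, 27 gene-start differences changed sign, with ranges of Kdm4b -0.31 to 0.18, Sin3a -0.12 to 0.17, Kdm3a -0.23 to 0.26, Kdm4a -0.26 to 0.20, Mbd3 -0.21 to 0.14, Cbx5 -0.20 to 0.22, Lbr -0.30 to 0.24, Hdac1 -0.049 to 0.35, Kdm4c -0.52 to 0.36, Atf7ip -0.35 to 0.19, Mphosph8 -0.29 to 0.19, Setdb2 -0.38 to 0.26, Lmnb1 -0.25 to 0.51, Smchd1 -0.36 to 0.40, Mbd2 -0.26 to 0.49, Hdac2 -0.33 to 0.42, Trim28 -0.22 to 0.47, Ehmt1 -0.16 to 0.26, Suv39h2 -0.44 to 0.22, Tet3 -0.16 to 0.27, Uhrf1 -0.23 to 0.12, Tet2 -0.40 to 0.39, Cbx1 -0.28 to 0.13, Kdm1a -0.093 to 0.17, Setdb1 -0.61 to 0.39, Dnmt3a -0.16 to 0.21, Hdac3 -0.032 to 0.43. Sign also changed with quantile normalization, with and without the block, at Sin3a (-0.0024), Smchd1 (-0.0035), and with voom at Cbx5 (-0.013), Smchd1 (-0.052). Without both number 2 libraries it changed at Mbd3 (0.045), Kdm4c (0.057), Atf7ip (0.0065), Mphosph8 (0.063), Setdb2 (0.12), Suv39h2 (0.042), Tet2 (0.0043), Setdb1 (0.15). Without both number 3 libraries it changed at Kdm3a (-0.051), Cbx5 (-0.056), Lmnb1 (-0.061), Smchd1 (-0.10), Mbd2 (-0.023), Trim28 (-0.021), Ehmt1 (-0.12), Tet3 (-0.056), Dnmt3a (-0.024). The cause of these changes was not tested. Of the 77 peaks away from the gene-start peaks, 63 had a library with fewer than 50 reads, where counting error is large.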
